A study of Homo sapiens with 12 samples.

Results

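Transcripts of 9 chemokine genes (CXCL1, CXCL2, CXCL3, CXCL8, CXCL10, CXCL11, CCL2, CCL5 and CCL20) were followed by symbol among the 58671 gene rows of RNA-seq of A549 cells, an epithelial line from a human lung carcinoma. Parental cells (WT) and a derivative knocked out for the endoribonuclease RNase L (RLKO) were each analysed untreated and 6 h after transfection with 500 ng/ml of the double-stranded RNA mimic poly(I:C). Each of the 4 groups had 3 samples, and the authors' table gave for each gene 1 FPKM value (fragments scaled by transcript length and library size) over the samples of a group. The levels below therefore come without error or read depth, and the tests are the authors' own, poly(I:C) against untreated cells within a genotype. The words rose and fell are kept for genes whose q in the authors' deposited table lies under 0.05, and no comparison between WT and RLKO carries a test. Whether the RLKO cells were 1 clone was not given in the sources used here.

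Chemokines are small secreted proteins that draw leucocytes along a gradient, and airway epithelium is a main source of them in viral infection. CXCL1, CXCL2, CXCL3 and CXCL8 carry the ELR motif and attract neutrophils through CXCR2 (CXCL8 also through CXCR1), CXCL10 and CXCL11 attract activated T cells and natural killer cells through CXCR3, CCL2 attracts monocytes through CCR2, CCL5 attracts T cells and other leucocytes, and CCL20 attracts CCR6-bearing cells. Their genes are textbook targets of NF-kB and, for CXCL10, CXCL11 and CCL5, of the interferon regulatory factors, and the mRNAs of the neutrophil attractants are known to be short-lived through AU-rich elements.

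The DNA just before the RefSeq transcription start is shown first, because several of the genes share a string in this stretch. The part of the string in the responses described below was not tested. Promoters were found in the RefSeq table (GRCh38.p14) for 7 of the 9 genes, not for CCL2 and CCL5. The string GGAATTTCC, the core of an NF-kB-type site, was searched on both strands (its reverse complement reads GGAAATTCC) in the 300 bases from 250 before to 50 after the start. It was chosen after these sequences had been read. It was found in 6 of the 7 promoters, CXCL1, CXCL2, CXCL3, CXCL8, CXCL10 and CXCL11, and in 0.472% of 27305 promoters in the table. Other spellings of NF-kB-type sites were not searched, so the lack of this string in CCL20 does not mean that such a site is absent. The capitals mark the string in the runs that follow, each ending at the base before the RefSeq start. For CXCL11 and CCL20 this start lies far inside the gene span given below from another annotation, GENCODE, whose outermost start differs.
CXCL1, chr4:73869243-73869392, plus strand: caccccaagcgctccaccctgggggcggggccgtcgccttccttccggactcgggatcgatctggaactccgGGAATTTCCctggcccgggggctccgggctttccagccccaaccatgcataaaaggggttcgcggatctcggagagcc
CXCL2, chr4:74099196-74099345, minus strand: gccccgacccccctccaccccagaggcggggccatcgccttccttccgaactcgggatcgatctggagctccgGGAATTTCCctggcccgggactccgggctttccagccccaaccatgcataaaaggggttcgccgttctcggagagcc
CXCL3, chr4:74038690-74038839, minus strand: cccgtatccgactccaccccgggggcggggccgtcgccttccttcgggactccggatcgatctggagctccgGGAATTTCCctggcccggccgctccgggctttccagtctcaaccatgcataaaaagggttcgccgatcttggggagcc
CXCL8, chr4:73740419-73740568, plus strand: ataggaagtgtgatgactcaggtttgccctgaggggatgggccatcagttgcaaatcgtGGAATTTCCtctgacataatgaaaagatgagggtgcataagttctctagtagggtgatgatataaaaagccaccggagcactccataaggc
CXCL10, chr4:76023498-76023747, minus strand: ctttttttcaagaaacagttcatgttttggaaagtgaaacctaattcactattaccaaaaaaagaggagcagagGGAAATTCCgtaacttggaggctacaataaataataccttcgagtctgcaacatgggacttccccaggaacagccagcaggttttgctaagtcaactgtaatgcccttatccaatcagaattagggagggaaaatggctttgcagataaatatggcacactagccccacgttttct
CXCL11, chr4:76036071-76036220, minus strand: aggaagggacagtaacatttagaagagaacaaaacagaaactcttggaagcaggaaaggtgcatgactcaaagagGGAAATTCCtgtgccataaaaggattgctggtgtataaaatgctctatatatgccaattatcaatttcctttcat
CCL20, chr2:227813692-227813841, plus strand: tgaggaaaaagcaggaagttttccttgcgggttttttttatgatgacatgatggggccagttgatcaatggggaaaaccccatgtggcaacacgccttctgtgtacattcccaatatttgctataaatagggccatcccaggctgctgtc

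In CXCL1, CXCL2 and CXCL3 the string began 78, 77 and 78 bases before the start, and the 300-base promoters of CXCL1 and CXCL3 were 82.5% identical in a global alignment (72.1% for CXCL1 and CXCL2, 73.8% for CXCL2 and CXCL3). In CXCL8 it began 91 bases before the start, in CXCL11 75 and in CXCL10 176, in the last pair on the opposite strand. Beside it, CXCL8 and CXCL11 held TGANTCA, the AP-1 string (both strands searched), 137 and 87 bases before the start, as did 7.76% of all promoters. GAAANNGAA, the core of an interferon-stimulated response element, was searched on both strands and found in CXCL2, CXCL3 and CXCL10, and in 8.29% of all promoters. TATAAA on the gene's strand stood in CXCL8, CXCL11 and CCL20, 31, 42 and 29 bases before the start, and in 7.71% of all promoters. These 4 strings do not overlap one another in the members. A match is a string of letters, and no binding was measured here.

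All 9 genes lay on GRCh38 chromosomes 4, 17 and 2 in GENCODE v29. The 6 CXC genes ran from CXCL8 (chr4:73740506-73743716) through CXCL1 (chr4:73869393-73871242), CXCL3 (chr4:74036589-74038807) and CXCL2 (chr4:74097035-74099293) to CXCL10 (chr4:76021117-76023497) and CXCL11 (chr4:76033682-76041415), CCL2 (chr17:34255218-34257203) and CCL5 (chr17:35871491-35880793) shared chromosome 17, and CCL20 lay at chr2:227805739-227817564. CXCL1, CXCL2 and CXCL3 are close copies. Of the 50-base words in the main transcripts of CXCL1, CXCL2 and CXCL3, 5.73%, 9.24% and 5.26% recurred exactly in another of the 6 CXC transcripts, and 16.2%, 20.5% and 9.94% of the 30-base words did. CXCL8, CXCL10 and CXCL11 shared 0 words of either length. How reads that fit several copies were assigned was not given in the sources used here, so the separate values of CXCL1, CXCL2 and CXCL3 are uncertain to that extent. CXCL10 and CXCL11 lie inside ART3 on the opposite strand, a gene at 0.026, 0.745, 0.114 and 0.138 FPKM in untreated WT, treated WT, untreated RLKO and treated RLKO. A pseudogene on the strand of CXCL11 that overlaps it, AC112719.1, stood at 2.63 FPKM in treated WT and 0.222 FPKM in treated RLKO and at 0 in both untreated groups. Whether the libraries kept the strand was not given in the sources used here.

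Before treatment CCL2 was the dominant chemokine transcript in both genotypes. It stood at 482 FPKM in WT and 465 FPKM in RLKO, which placed it at rank 293 and 272 among 12181 protein-coding genes that reached at least 1 FPKM in a group, and it made up 87.1% and 82.7% of the summed FPKM of the 9 genes. CXCL8 followed at 30.004 and 46.3 FPKM, with CXCL2 (20.002 and 17.3 FPKM), CXCL1 (9.29 and 22.3 FPKM) and CXCL3 (9.44 and 10.1 FPKM) near it or below, and CCL20 low (2.86 and 1.19 FPKM). CXCL10 was listed at 0 in WT and at 0.035 FPKM in RLKO, and CXCL11 and CCL5 were listed at 0 in both. The untreated lines thus differed most in CXCL1, at 2.40 times the WT level in RLKO, and in CCL20, at 2.41 times the RLKO level in WT. With no spread available, neither difference can be set against the variation between samples.

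Of the 9 genes, 8 reached 1 FPKM in at least 1 group and CCL5 did not. CXCL10 and CXCL11 got there through their treated levels alone, so their difference is part of how they passed. In WT, 5 of the 8 rose after poly(I:C) and 0 fell, where 4.27% of the 12181 protein-coding genes rose. In RLKO 2 of the 8 rose and 0 fell, where 0.821% of those genes rose. The 9 genes were chosen with earlier results of these data known, so such counts, here and below, do not test the list. With an unadjusted p under 0.05, CXCL1, CXCL2, CXCL3, CXCL8 and CCL20 were higher in each genotype, 5 of the 8, where 9.02% of protein-coding genes were in WT and 2.21% in RLKO. The median log2 change was 2.85 in WT and 1.03 in RLKO over all 9 genes (2.92 and 1.64 over the 8 above the filter), and that of all protein-coding genes was -0.70 and -0.24. Log2 changes here are on a spike-in scale, with each group divided by its ERCC spike-in factor and a pseudocount of 1 added, which understates the change of low genes. Relative to the spike-ins more than 50% of protein-coding genes had lower values after poly(I:C) in WT and also in RLKO, and in FPKM as deposited the protein-coding medians were -0.17 and -0.10. This scaling was applied here to the deposited values and had no part in the authors' q-values. A q printed beside a log2 change, here and below, therefore does not test that scaled change. In bulk RNA, fewer cells with a transcript and less of it per cell cannot be told apart.

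**Figure D1:**
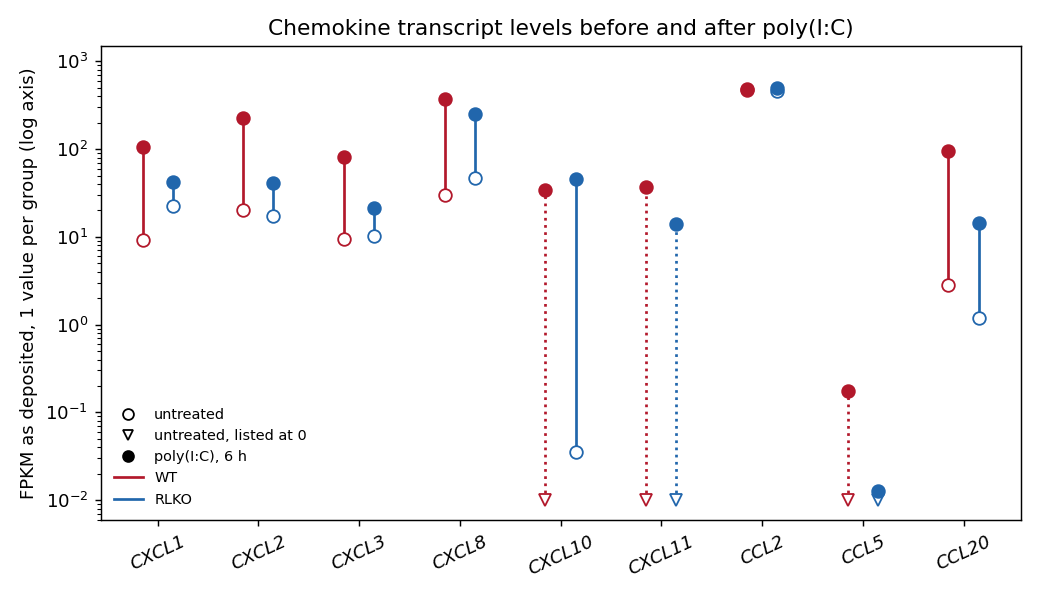
FPKM as deposited (log axis) of the 9 chemokine transcripts, WT in red and RLKO in blue, from untreated (open) to poly(I:C)-treated (filled) cells; a symbol is 1 deposited value per group, for which no error can be drawn, and triangles mark values listed at 0, drawn at the foot of the axis. CXCL2 went from 20.002 to 229 FPKM in WT and from 17.3 to 41.2 FPKM in RLKO, while the symbols of CCL2 nearly coincide.

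CXCL1, CXCL2, CXCL3 and CXCL8 all rose in WT. CXCL8, the main neutrophil chemokine of human epithelium, went from 30.004 to 373 FPKM in WT, 12.4-fold in FPKM and 8.13-fold on the spike-in scale (log2 change 2.99, q = 0.0018 in the authors' deposited table). It became the transcript of rank 128 among the protein-coding genes, from rank 3571. CXCL2 went from 20.002 to 229 FPKM (11.4-fold in FPKM, log2 change 2.85), CXCL1 from 9.29 to 105 FPKM (11.3-fold, 2.79) and CXCL3 from 9.44 to 81.2 FPKM (8.60-fold, 2.39), each with the same q. That q belongs to the smallest p the authors' table holds, 5e-05, which 661 gene rows share in WT, so the 4 genes are not ordered by it. The folds of the 4 in FPKM lay between 8.60 and 12.4.

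In RLKO, 1 of these 4 genes passed the test. CXCL8 rose from 46.3 to 254 FPKM (5.50-fold in FPKM, log2 change 2.26, q = 0.0107 in the authors' deposited table). CXCL2 stood at 17.3 FPKM before and 41.2 FPKM after treatment (2.38-fold, log2 1.03, p = 0.0011, q = 0.145 in the authors' deposited table). CXCL3 stood at 10.1 and 21.5 FPKM (2.12-fold, 0.85, q = 0.806) and CXCL1 at 22.3 and 42.4 FPKM (1.90-fold, 0.72, q = 0.844), so these 3 did not pass the threshold. Lack of a call in RLKO does not show lack of a response. CXCL10, described below, stood at 0.035 and 46.1 FPKM there without a call. The summed FPKM of the 4 was 11.5 times the untreated sum in WT, 68.7 against 789 FPKM, and 3.74 times in RLKO, 96.0 against 360 FPKM.

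CCL20, which draws CCR6-bearing dendritic and T cells, rose in both genotypes from low levels. It went from 2.86 to 95.8 FPKM in WT, 33.5-fold in FPKM (log2 change 4.12, q = 0.0018 in the authors' deposited table), and from 1.19 to 14.5 FPKM in RLKO, 12.2-fold (2.68, q = 0.0107 in the authors' deposited table). Among the 9 genes it had the largest fold with a value above 0 before treatment in WT. Its treated level in WT was 6.60 times that in RLKO in FPKM, but its untreated level there was also 2.41 times higher.

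The CXCR3 ligands were at or near 0 before treatment and did not pass the authors' test. CXCL10 was listed at 0 in untreated WT and stood at 33.9 FPKM after poly(I:C) (q = 0.386 in the authors' deposited table), and in RLKO it stood at 0.035 FPKM before and 46.1 FPKM after (q = 1.00). CXCL11 was listed at 0 in both untreated lines and stood at 37.5 FPKM in treated WT (q = 0.415) and at 14.0 FPKM in treated RLKO (q = 1.00). Their log2 changes, 4.86 and 4.996 in WT and 5.37 and 3.78 in RLKO, were the largest of the 9 genes in each genotype, without a call. Over a value at or near 0 their size is set by the pseudocount: with 0.1 in place of 1 they were 8.13 and 8.28 in WT and 8.27 and 7.004 in RLKO. The unadjusted p-values lay between 0.0983 and 0.201.

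CCL2 did not pass the test in either genotype, and CCL5 was not tested. CCL2, the monocyte attractant, stood at 482 and 466 FPKM in WT before and after poly(I:C) (q = 0.966 in the authors' deposited table) and at 465 and 495 FPKM in RLKO (q = 1.00). On the spike-in scale its log2 change was -0.66 in WT, close to the protein-coding median, and -0.09 in RLKO, values whose sign depends on the scale: after median-ratio scaling they were 0.16 and 0.22, and in FPKM as deposited -0.05 and 0.092. The normalised fold that the authors deposited for CCL2 was 0.617 in WT and 0.933 in RLKO. With its level near the top throughout, CCL2 remained the most abundant of the 9 transcripts in every group, but its share of their sum was 32.8% in treated WT and 53.3% in treated RLKO. CCL5, which attracts T cells, reached 0.177 FPKM in treated WT and 0.0127 FPKM in treated RLKO, and the authors' deposited table marks it as not tested.

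**Figure D2:**
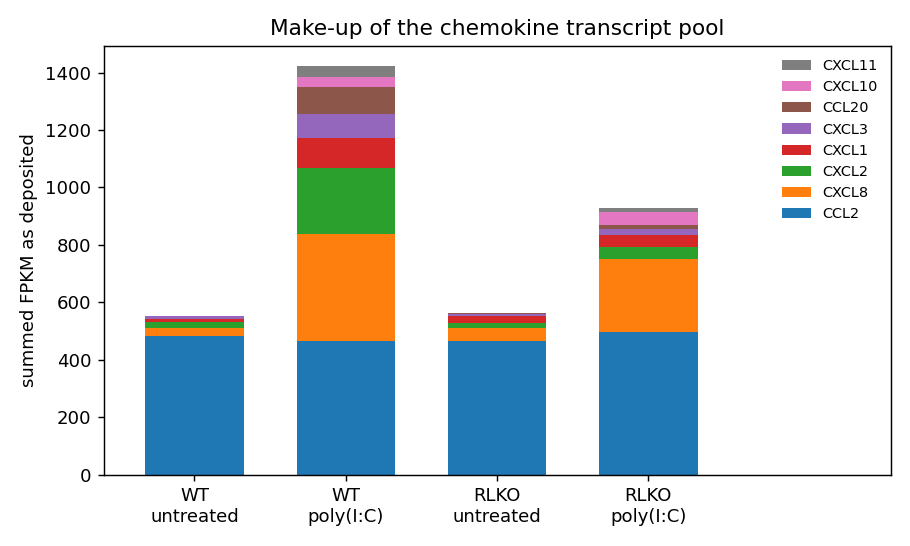
Summed FPKM as deposited (vertical axis, from 0) of 8 chemokine transcripts in each group, stacked by gene; CCL5, under 1 FPKM in each group, is left out. The bar of treated WT reaches 1422 FPKM and that of treated RLKO 930 FPKM, against 554 and 562 FPKM untreated, and CCL2 makes up a like height in all 4.

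The size of the response in WT was then compared with that in RLKO, without a test. Of the 8 genes above the filter, 6 had the larger log2 change in WT, where 26.7% of protein-coding genes did. That background depends on the scale: it was 44.9% in FPKM as deposited and 48.6% after median-ratio scaling, where the members' count was 6 as well. On the spike-in scale 5 had a change larger by 1 or more (CXCL1, CXCL2, CXCL3, CXCL11 and CCL20), where 4.42% did. In FPKM as deposited these were 6 genes, with CXCL8, and 8.67%. CXCL11 is counted in these numbers although, like CXCL10, it passed the filter through its treated levels alone. Apart from CXCL10 and CXCL11, the change was larger in WT for CXCL1, CXCL2, CXCL3, CXCL8 and CCL20, but not for CCL2. The differences were 2.06 for CXCL1, 1.82 for CXCL2, 1.55 for CXCL3, 1.44 for CCL20, 1.22 for CXCL11 and 0.73 for CXCL8. The median difference over all protein-coding genes was -0.47. CXCL10 and CCL2 went the other way, at -0.52 and -0.58. In FPKM as deposited every one of these signs was the same, with CXCL10 at -0.38 and CCL2 at -0.14 against a protein-coding median of -0.10. After median-ratio scaling they were -0.28 and -0.06 against -0.03, and with a pseudocount of 0.1 on the spike-in scale CXCL10 was at -0.14. The order of the differences depends on the untreated levels too. In FPKM, untreated CXCL1 in RLKO was 2.40 times that in WT, and untreated CXCL8 stood at 46.3 against 30.004. CXCL2 and CCL20 were instead higher in untreated WT, and CXCL3 was nearly level. CXCL1 therefore had the largest difference but not the largest ratio between the treated groups.

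Between the treated groups, CXCL2 was 5.56 times higher in treated WT than in treated RLKO in FPKM (5.04 times on the spike-in scale), CXCL3 3.77 times, CXCL11 2.68 times and CXCL1 2.48 times. CXCL8 was 1.47 times higher in WT and CCL2 was nearly level (1.06 times higher in RLKO). CXCL10 was higher in RLKO, 1.36 times in FPKM and 1.501 times on the spike-in scale. CXCL10 and CXCL11, neighbours on the same strand, were at 33.9 and 37.5 FPKM in treated WT but at 46.1 and 14.0 FPKM in treated RLKO. The order of the transcripts below CCL2 and above CCL5 differed between the treated lines: CXCL8, CXCL2, CXCL1, CCL20, CXCL3, CXCL11 and CXCL10 in WT, and CXCL8, CXCL10, CXCL1, CXCL2, CXCL3, CCL20 and CXCL11 in RLKO. Neighbours in these orders cannot be separated without a spread.

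**Figure D3:**
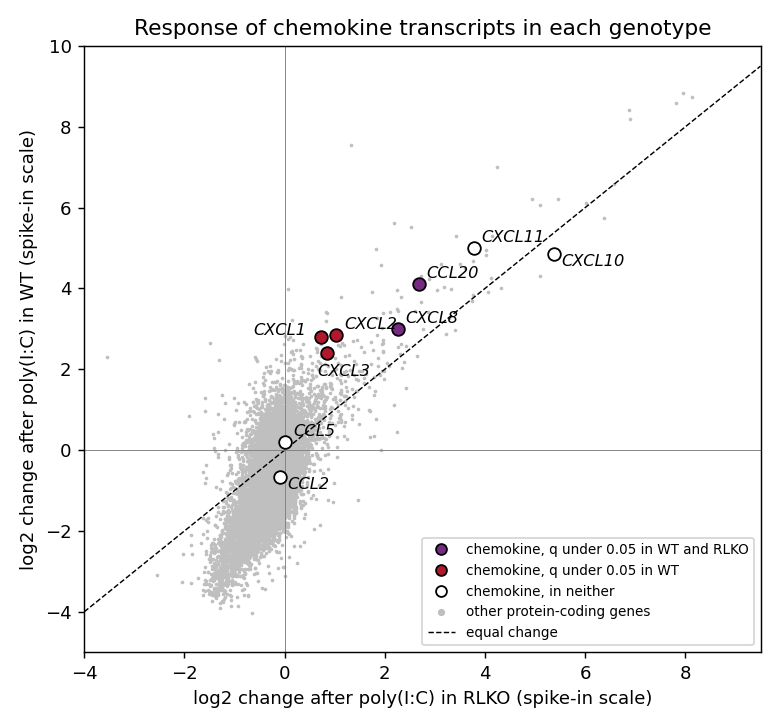
Log2 change on the spike-in scale in RLKO (horizontal) and WT (vertical) for protein-coding genes (grey) and the 9 chemokine genes (circles, purple where the authors' q was under 0.05 in WT and RLKO, red in WT alone, white in neither); the dashed line marks equal change. CXCL1 lies at 0.72 and 2.79, well above the line, and CXCL10 at 5.37 and 4.86, just below it.

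The other chemokine genes of the chromosome 4 cluster give the members a local comparison. CXCL5, a neutrophil attractant whose gene lies between CXCL1 and CXCL3, was abundant before treatment, at 148 FPKM in WT and 161 FPKM in RLKO, and stood at 91.0 and 134 FPKM after it (q = 0.525 and 1.00 in the authors' deposited table). CXCL9, the third CXCR3 ligand, whose gene lies next to CXCL10, was listed at 0 in untreated WT and reached 0.570 FPKM in treated WT and 0.315 FPKM in treated RLKO. CXCL6, PF4V1, PF4, PPBP and CXCL13 stayed under 1 FPKM in each group. Of 15 other protein-coding genes between CXCL8 and CXCL11, a stretch of 2.30 Mb, 12 passed the filter, and of these 1 rose in WT, EREG, which encodes the growth factor epiregulin (27.4 to 83.6 FPKM, log2 change 0.98, q = 0.0389 in the authors' deposited table). In RLKO 0 rose, and at an unadjusted p under 0.05 there were 3 of the 12 in WT and 0 in RLKO. That comparison was chosen after values were seen.

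**Figure D4:**
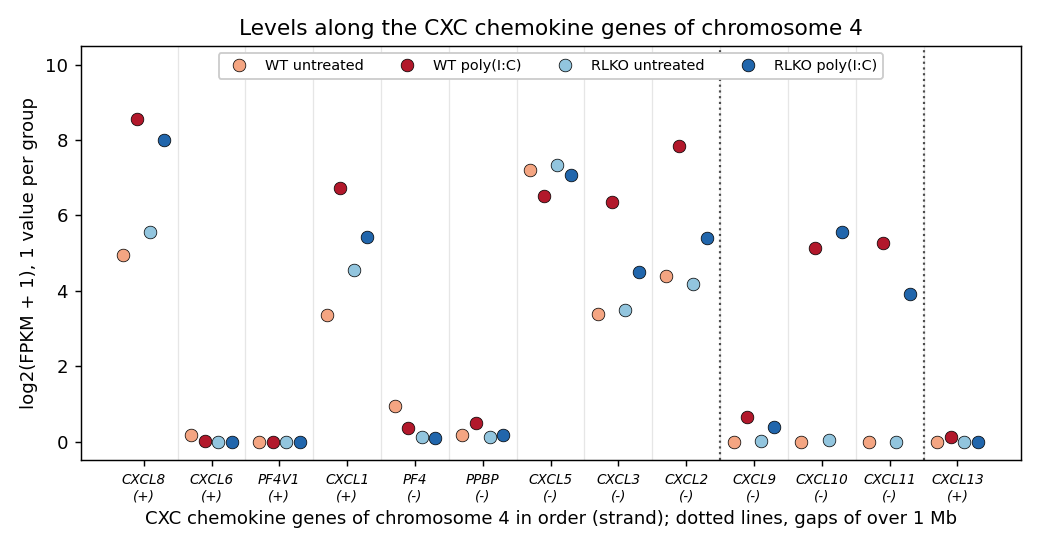
log2(FPKM + 1) as deposited (vertical axis) of the CXC chemokine genes of chromosome 4, in order along the chromosome, in the 4 groups (1 value per group); dotted lines mark gaps of over 1 Mb between neighbours. CXCL1, CXCL3 and CXCL2 are highest in treated WT, while CXCL5 between them is lowest there, at 91.0 FPKM.

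Of 11 other CXC ligands 2 passed the filter (CXCL5 and CXCL16), and of 26 other CC, CX3C and XC ligands, 25 of them in the table, 1 did (CCL26). CX3CL1, the ligand of CX3CR1, did not reach 1 FPKM but has a q under the threshold in WT (0.0242 and 0.547 FPKM, q = 0.00546 in the authors' deposited table). By Cuffdiff 0 of the 3 above the filter were called in WT or RLKO, and at an unadjusted p under 0.05 there was 1 in WT, CCL26 (3.67 and 1.08 FPKM, q = 0.0645 in the authors' deposited table), and 0 in RLKO. Of 23 chemokine receptors 5 passed, and 3 of these rose in WT: CXCR4, the CXCL12 receptor (2.07 to 12.04 FPKM, log2 change 1.60, q = 0.0018 in the authors' deposited table), CCR7 (1.01 to 5.10 FPKM) and CCR4 (listed at 0 before, 1.33 FPKM after). CCR4 passed the filter through its treated WT level alone, so without it the count is 2 of 4, beside 4.27% over all protein-coding genes. CXCR4 stood at 2.204 and 5.67 FPKM in RLKO, where 0 of the 5 receptors passed and 1 had an unadjusted p under 0.05. CXCR1 and CXCR2 did not reach 1 FPKM, nor did CXCR3.

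Among 15 factors of the NF-kB pathway 14 passed the filter, with 6 higher in WT and 3 in RLKO and 0 lower in either. For this list and the next 2, the shares of all protein-coding genes that rose were 4.27% in WT and 0.821% in RLKO. These lists too were chosen with earlier results of these data known. NFKBIZ, a nuclear co-factor of NF-kB, rose by a log2 change of 5.53 in WT and 2.52 in RLKO, TNFAIP3, a ubiquitin-editing inhibitor, by 4.84 and 4.02, and NFKBIA, the IkB alpha inhibitor, by 2.71 and 1.96. REL rose in WT (1.51). Of 6 interferon response factors 4 passed, with 3 higher in WT and 2 in RLKO; IRF1 rose by 3.69 and 3.73 and STAT2 by 2.48 and 1.77. Of 9 regulators of AU-rich and stem-loop mRNAs all passed, with 3 higher in WT and 1 in RLKO. ZFP36, tristetraprolin, which binds AU-rich elements and promotes decay, rose by 3.91 in WT and 1.74 in RLKO, ZFP36L2 by 1.85 in WT and ZC3H12A, the stem-loop endonuclease regnase-1, by 1.17 in WT. All values in these 3 lists are log2 changes on the spike-in scale.

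By the Euclidean distance between the 4 group values (log2 on the spike-in scale, each gene's mean taken off), the protein-coding genes nearest to CXCL8 were GBP4, KLF4 and PARP14 (distance 0.36 to 0.44). Those nearest to CXCL10 were ISG15, IFIT1 and IFIH1 (0.56 to 1.00), and those nearest to CCL20 were HIP1R, FOS and DHX58 (0.76 to 0.84). ISG15 and IFIT1, like CXCL10, were higher in treated RLKO than in treated WT, at 344 against 294 and 397 against 333 FPKM, and IFIH1 was lower, at 88.4 against 153 FPKM. HIP1R, FOS and DHX58, like CCL20, were higher in treated WT, at 165 against 41.9, 65.7 against 9.04 and 37.3 against 8.86 FPKM. In RLKO, IFIT1 (3.28 and 397 FPKM, q = 0.797 in the authors' deposited table) and DHX58 (0.042 and 8.86 FPKM) were not called. Between the members themselves CXCL2 and CXCL3 were closest (0.57), with CXCL1 and CXCL3 next among the genes that rose in WT (0.88). CXCL8 lay farther from CXCL2 (1.61) than CXCL1 did (1.29), but CXCL1 lay closer to CXCL8 than to CXCL2. CCL20 also lay closer to CXCL2 than CXCL8 did. GBP4 was listed at 0 in both untreated groups and stood at 8.45 and 6.32 FPKM in treated WT and treated RLKO. It passed the filter through its treated levels alone, as did DHX58 (0.245 and 0.042 FPKM in untreated WT and RLKO). The likeness found for GBP4 and DHX58 therefore depends on the pseudocount. All distances here rest on 4 values per gene and describe likeness only.

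The 3′ untranslated regions of the main GENCODE v29 transcripts were read for ATTTA, the DNA spelling of the AU-rich pentamer, on the transcript's strand. The stretches of 30 bases with the most pentamers are shown for the 5 genes that rose in WT and for CXCL10, which did not pass, with the pentamers in capitals.
CXCL1: aagtcttctATTTATTTATTTAttcattag
CXCL2: cttctATTTATTTATTTATTTATTTAtttg
CXCL3: gttctacttATTTAtgtATTTAtttttgaa
CXCL8: cctATTTAttATTTAtgtATTTATTTAagc
CCL20: tgtattttatgttATTTAtagctgtaggtt
CXCL10: tgtaagtattcttATTTAatgaaagactgt

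CXCL2 held 10 pentamers in its 3′ untranslated region, CXCL8 9, CXCL3 7, CXCL1 5 and CCL20 3, while CXCL10, CXCL11 and CCL2 held 1 each and CCL5 0. Per 1000 bases the first 5 had 6.65 to 13.9, at percentiles of 95.5 to 99.4 among 11895 transcripts of protein-coding genes that passed the filter, whose median was 1.64. CXCL10, CXCL11 and CCL2 had 1.23, 0.90 and 2.66. The longer TTATTTATT was present in CXCL1, CXCL2, CXCL3 and CXCL8 and in 8.52% of those transcripts. By their number alone, without regard to length, the same 5 genes stood lower, at percentiles of 57.5 for CCL20, 70.5 for CXCL1, 79.3 for CXCL3, 85.0 for CXCL8 and 87.1 for CXCL2. Half-lives that the authors' deposited table takes from another study covered CXCL1 (4 h) and CXCL2 (2.35 h), against a median of 4 h over 9527 protein-coding genes. The dinucleotides TA and TT are in RNA the UA and UU after which RNase L is known to cut. They made up 21.1% of the dinucleotides in CXCL8, 19.8% in CCL20, 18.1% in CXCL11, 16.9% in CCL2 and 15.8% in CXCL10. CXCL3, CXCL2 and CXCL1 had 15.3%, 14.1% and 13.9%, CCL5 was lowest of the 9 at 8.80%, and the median transcript had 11.3%. The part of any of these features in the responses was not tested.

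**Figure D5:**
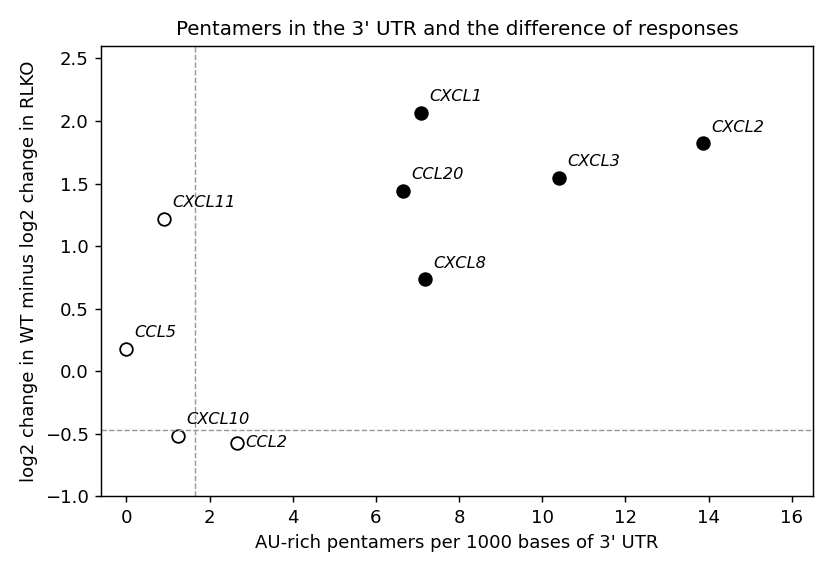
AU-rich pentamers per 1000 bases of 3′ untranslated region (horizontal) and the spike-in-scaled log2 change in WT minus that in RLKO (vertical) for the 9 genes, filled where the gene rose in WT; dashed lines are the medians over protein-coding genes (1.64 and -0.47). The 5 filled points lie to the right of the others, from 6.65 to 13.9, at differences of 0.73 to 2.06.

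From 49 spike-in rows, the ERCC factor of treated WT was 1.53 times that of untreated WT, and the ratio in RLKO was 1.13, which sets the gap between the FPKM and spike-in values above. Of the epithelial markers KRT7, KRT8 and KRT18 were abundant in each group (256 to 1748 FPKM), while CDH1 (2.93 to 4.52 FPKM) and EPCAM (0.558 to 1.03 FPKM) were low. The 6 epithelial markers summed to 2921 and 1586 FPKM in untreated and treated WT and 3033 and 2941 FPKM in RLKO, with 0 called in either (1 with an unadjusted p under 0.05 in WT, KRT19, and 0 in RLKO). Among 8 leucocyte markers the summed level was 21.1 FPKM in untreated and 34.5 FPKM in treated WT, and 25.6 and 21.1 FPKM in RLKO, nearly all of it CD68 and ITGAM. PTPRC and CD3E, which define leucocytes and T cells, had their highest value at 0.0421 FPKM. Among 8 fibroblast and endothelial markers the summed level was 9.46 and 7.97 FPKM in WT and 4.79 and 3.08 FPKM in RLKO, and LUM, a matrix proteoglycan, fell in WT (2.95 to 0.179 FPKM, q = 0.0145 in the authors' deposited table). The part of these markers in the chemokine values was not tested.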

How the data were processed

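RNA-seq of 12 A549 samples, 3 in each of 4 groups (WT and RLKO, untreated or given poly(I:C)), was used as 1 deposited table of 58763 rows, 92 of them ERCC spike-in RNAs, which per the labels were added before rRNA was removed. Per the file headers, the authors gave 1 FPKM value per group and, for poly(I:C) against untreated cells in each genotype, p-values, q-values and a normalised fold (normFC). The headers do not say how that fold was normalised, and folds elsewhere in this text were computed from the FPKM values. Per the submitters' processing notes, reads were handled with Cuffdiff 2.2.1, Bowtie2 2.0.2, TopHat2 2.0.6 and Trimmomatic 0.32 and the GRCh38.p12 build; their settings were not given in the sources used here. Per the file headers, GC content in percent, lengths and half-lives were also deposited. Whether the samples of a group were separate cultures was not given in the sources used here, so the p-values may measure technical spread.

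Rows with status HIDATA (86) or a repeated identifier (45) were left out and rows with at least 1 FPKM in a group kept (22087, of which 12181 were protein-coding in GENCODE v29). Each group was divided by its median ERCC ratio (49 rows averaging 1 FPKM or more). The test across samples that had been planned could not be run on pooled values, so the authors' q-value took its place, as the plan allowed. Read depth is unknown. The members and lists were chosen with earlier results of these data known. Genes named are the 9 members, up to 4 called members of each list or its most abundant one, and the 3 nearest to CXCL8, CXCL10 and CCL20, and a few genes that this rule or the checks cover are not reported here; EREG, AREG, KRT8, KRT18, KRT19, CDH1, EPCAM, PTPRC, CD3E, CXCL16, CCL26, CX3CL1, ART3, AC112719.1, CXCR1, CXCR2, CXCR3 and the CXC genes of chromosome 4 were added after values were seen. Alternatives were other scalings, another pseudocount, other filters, another threshold and renewed Benjamini-Hochberg adjustment. Scaling and adjustment were tested on simulated data. Python 3.11.15 and Biopython were used, and promoters came from RefSeq.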

Additional observations from a re-analysis of the deposited data

How the results depend on the processing

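The 5 genes called in WT numbered 5 under each alternative run (FPKM as deposited, p-values adjusted over the kept rows, a threshold of 0.01, no filter, and a filter of 10 FPKM). The 2 genes called in RLKO numbered 2 under these too, except that at a threshold of 0.01 the number was 0, since the smallest q the authors' table holds for RLKO is 0.0107. Apart from the renewed adjustment, these runs reuse the authors' q-values, and a change of scale can alter only the sign of a change. With q = 0.0018 and 81.2 FPKM or more in treated WT, the 5 genes could not drop out. CCL5, the gene outside the filter, was not tested. The unchanged count in WT is therefore little check of the calls. The number of genes with the larger change in WT, CXCL11 among them, was 6 under every scaling, pseudocount and stricter filter tried and 7 without a filter, where CCL5 enters. The log2 change of CCL2 turned sign with the scale: it was 0.16 in WT after median-ratio scaling over protein-coding genes, and in RLKO 0.092 in FPKM as deposited and 0.22 after that scaling. The other alternatives left the sign of each gene's change and difference as given. Median-ratio scaling moved the protein-coding medians to about 0 (0.01 in both genotypes) and their difference to -0.03. With 1 value per group no spread limits these values, leaving out a sample could not be done, and read depth is unknown. No paired analysis was possible because the table holds no value of a single sample.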

Other observations

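EREG and its neighbour AREG, growth factors of the epidermal growth factor receptor whose genes lie between the CXCL2 and CXCL10 genes, were chosen here after their values were seen. AREG stood at 28.9 and 68.7 FPKM in untreated and treated WT (q = 0.0598 in the authors' deposited table) and at 33.002 and 48.5 FPKM in RLKO. EREG stood at 48.7 and 55.8 FPKM in RLKO without a call. ITGAM, listed here as a leucocyte marker, rose in WT from 1.60 to 9.45 FPKM (q = 0.00546 in the authors' deposited table) and stood at 2.71 and 4.62 FPKM in RLKO, in libraries where PTPRC was at 0.0421 FPKM or less.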
